A study of Bos taurus with 20 samples.

Results

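The genes that build or regulate the meiotic chromosome axis and its recombination machinery were followed in bovine follicles, 10 in all: REC8, SMC1B, and STAG3 (meiotic cohesin), SYCP2, SYCP3, and HORMAD1 (chromosome axis), DMC1 (strand exchange), and MSH4, MSH5, and MLH3 (crossover formation). They were chosen by name, with earlier results of these data known. Every non-control probe that the array file names for them was taken. This gave 30 spots with 21 distinct probe sequences, of 61325 non-control spots for 22550 genes or transcripts. All 10 genes are described on 20 arrays, 4 each of immature oocytes, theca cells (TH, scraped from the follicle wall), granulosa cells (GC, the inner lining of the follicle), cumulus cells (CC, the cells around the oocyte) before in vitro maturation (IVM), and CC after 4 h of IVM. Ovaries were collected at slaughter, the follicles measured 3 to 6 mm, and the animals were untreated, with no allele, strain, or age in the labels. Each array was hybridized in 1 colour with Cy3-labelled cRNA from 200 ng of total RNA. The labels give the 4 arrays of a group as replicates, the study's methods call those of TH, GC, CC, and oocytes biological, and no source used here says how many cells, oocytes, or animals made up a sample.

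In meiosis, a cohesin ring with subunits used only in germ cells holds sister chromatids together and serves as the base of the chromosome axis, on which HORMAD1 and the SYCP2 and SYCP3 proteins assemble. Programmed breaks are repaired from the homologous chromosome with the help of DMC1, and MSH4 with MSH5 stabilises the joint molecules that are resolved into crossovers with the help of MLH3. In female cattle these steps are completed before birth, and the oocyte of an antral follicle is arrested with its homologues held by crossovers and by cohesin.

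The probes are 60 bases long, and those printed here are the ones on which the reading of a gene turns. They are given 5′ to 3′ as in the array files. For STAG3, the 2 sequences gave opposite results in the oocyte, and capitals in the second mark 19 bases that it shares with a probe named 7SK on the same array.
STAG3 probe 1: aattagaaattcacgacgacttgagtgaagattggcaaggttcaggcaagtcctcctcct
STAG3 probe 2: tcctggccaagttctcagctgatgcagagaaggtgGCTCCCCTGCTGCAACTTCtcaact
For MSH4 and MSH5, capitals mark the stretch common to both probes, 53 bases in MSH4 and 33 in MSH5, so that the probes of these genes read mostly the same part of the transcript.
MSH4 probe 1: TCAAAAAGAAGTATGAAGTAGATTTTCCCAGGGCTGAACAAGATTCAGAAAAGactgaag
MSH4 probe 2: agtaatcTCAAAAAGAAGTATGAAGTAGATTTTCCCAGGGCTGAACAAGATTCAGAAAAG
MSH5 probe 1: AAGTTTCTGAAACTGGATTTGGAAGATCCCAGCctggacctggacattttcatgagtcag
MSH5 probe 2: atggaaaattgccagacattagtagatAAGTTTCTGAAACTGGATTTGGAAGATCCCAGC
The probes of SMC1B, which had no shared run of 16 bases or more, and those of DMC1, which were dim in every group, are shown for contrast.
SMC1B probe 1: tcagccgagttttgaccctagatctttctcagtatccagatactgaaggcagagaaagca
SMC1B probe 2: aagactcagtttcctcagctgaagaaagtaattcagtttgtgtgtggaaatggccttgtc
DMC1 probe 1: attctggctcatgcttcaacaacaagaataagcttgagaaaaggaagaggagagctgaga
DMC1 probe 2: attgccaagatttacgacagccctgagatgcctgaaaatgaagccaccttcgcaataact

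On the array's annotation (UMD 3.1), the transcripts lie on 6 chromosomes. REC8 (chr10:20810613-20816425) and MLH3 (chr10:86671004-86694839) share a chromosome, as do MSH4 (chr3:69221074-69302542) and HORMAD1 (chr3:20059126-20078990). SYCP3 (chr5:65881780-65888886), DMC1 (chr5:110708930-110742207), and SMC1B (chr5:116464171-116545914) lie on a further one. SYCP2 is at chr13:57125794-57197458, MSH5 at chr23:27376011-27395815, and STAG3 at chr25:36741209-36770974. The files give the span of the transcript and not the exon that a probe lies in. In the RefSeq genes of a later assembly (ARS-UCD2.0), SYCP3 overlaps CHPT1, MSH5 overlaps CLIC1, and DMC1 overlaps a long non-coding RNA gene.

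Gene expression values are log2 of the processed spot intensity, scaled to the array's own 75th percentile and summarised by the median of a gene's spots, so 0 is the level of the 75th percentile and levels of different genes cannot be ranked. A spot counts as above background where the scanner software marks it as well above background, and a gene does so where at least 1 of its spots does. Between 54.2 and 62.8% of the spots were above background on the somatic arrays and between 49.3 and 68.8% on the oocyte arrays, the lowest being oocyte replicate 2. The number of arrays limits the precision. Oocyte markers (GDF9, BMP15, ZP2, ZP3, ZP4, and NLRP5) summed to 248 to 330 times the 75th percentile on oocyte arrays and to 0.561 to 3.01 in CC, 0.367 to 0.668 in TH, 0.178 to 0.399 in GC, and 0.161 to 0.560 in CC after IVM. Theca markers summed to 575 to 830 in TH and at most 115 elsewhere, and granulosa and cumulus markers to 110 to 769 in GC, CC, and CC after IVM and at most 33.4 elsewhere, so the markers were as labelled.

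**Figure D1:**
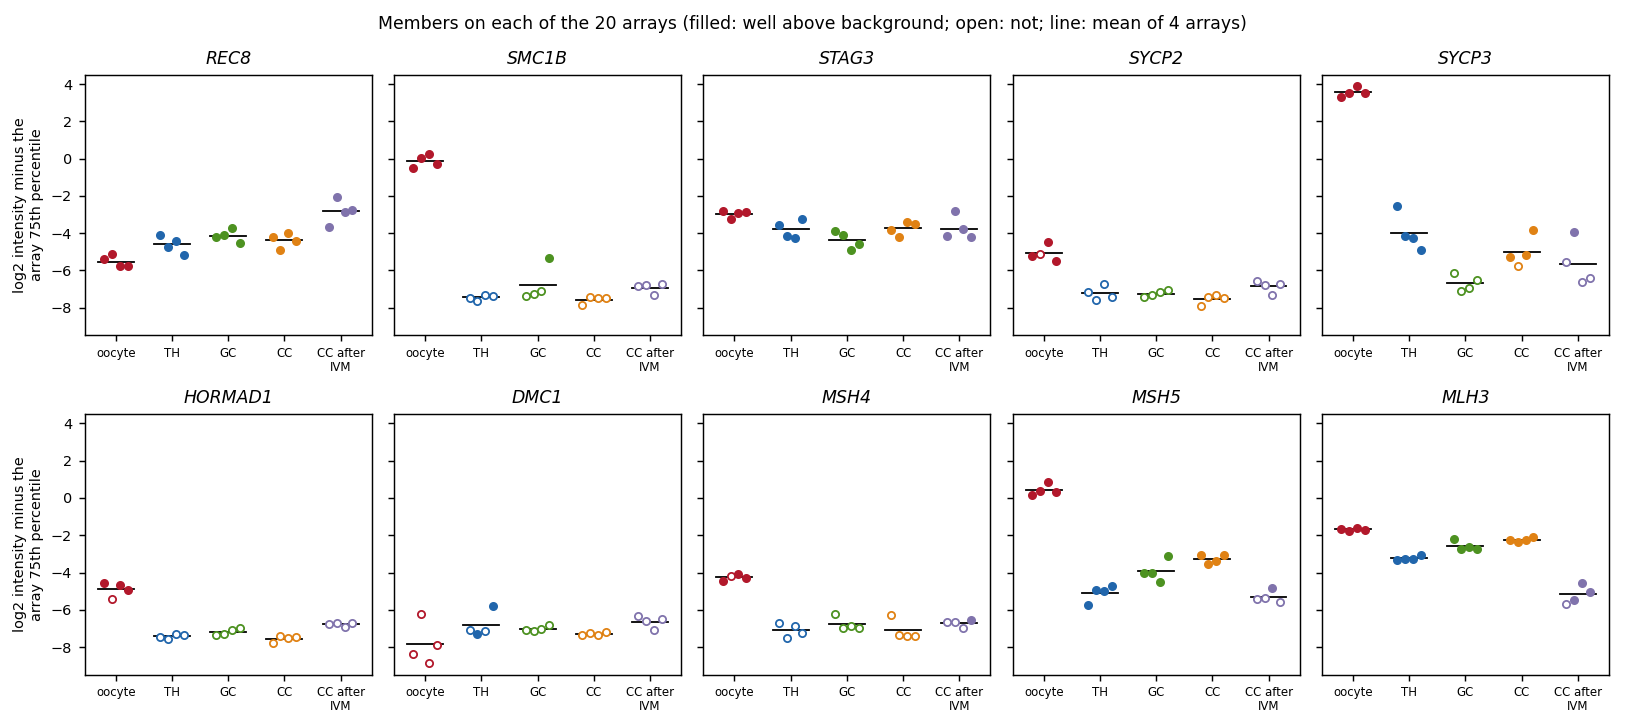
Gene expression of the 10 genes on each of the 20 arrays, as log2 intensity minus the 75th percentile of the array (vertical axis) by group (horizontal axis). Each point is 1 array, filled where the gene was well above background and open where it was not, and the line is the mean of the 4 arrays. SYCP3, SMC1B, and MSH5 stand far above their somatic values in the oocyte, and all 4 oocyte points of DMC1 are open.

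Seen together, 8 of the 10 genes had higher and 1 had lower expression in the oocyte, compared with the average of TH, GC, and CC, called the somatic mean here (limma, 16 arrays, Benjamini-Hochberg over all 22550 genes, threshold 0.05). The higher genes were SYCP3, SMC1B, MSH5, MSH4, HORMAD1, SYCP2, STAG3, and MLH3, the lower one was REC8, and DMC1 was not called. Normexp background correction is an alternative that adds an offset of 50 to the signal before the log. With it, the split was 4 higher (SYCP3, SMC1B, MSH5, and MLH3) and 4 lower (REC8, DMC1, SYCP2, and HORMAD1). That correction called 5416 of all 22550 genes higher and 15127 lower, with a median log2 difference of −1.3 over all genes. Without it, 32.9% of all genes of the array were called higher and 38.3% lower. The median log2 difference was then 2.37 over the 10 genes against −0.52 over all genes. In 7 genes all 4 oocyte arrays lay above all 12 arrays of TH, GC, and CC, which held for 25.3% of all genes. In whole samples such as these, fewer cells of a type and less RNA per cell cannot be told apart.

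The 3 cohesin subunits did not behave alike. SMC1B, the germ cell form of the SMC1 subunit of the ring, had gene expression values of −0.48, 0.05, 0.25, and −0.29 on the 4 oocyte arrays. It was above background on no array of TH, CC, or CC after IVM and on 1 GC array, replicate 4, at −5.31 against −7.36 to −7.10 on the others. On that array only probe 2 was above background, at −3.62, while probe 1 was at −6.99. The oocyte arrays were far above all others, at a measured log2 difference from the somatic mean of 7.14 (limma, standard error 0.29, adjusted p = 3.6e-12). Taking each array of a group without signal at the lowest signal well above background, this was at least 52.1-fold. In the same way, SMC1B was at least 36.0-fold higher in the oocyte than in TH (adjusted p = 4.5e-11) and at least 39.3-fold than in CC (adjusted p = 3.8e-11). It was at least 24.7-fold higher than in CC after IVM (adjusted p = 8.4e-13), whose arrays were on another slide. These bounds hold for the main scaling only. Over the alternatives of processing, the log2 difference of SMC1B went from 3.22 to 8.09 (somatic mean), 3.42 to 8.12 (TH), 3.30 to 8.26 (CC), and 2.68 to 7.61 (CC after IVM). It passed the threshold in each. Both SMC1B probes were bright in the oocyte, with means of 0.73 and −0.97.

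REC8, the kleisin that closes the meiotic ring, was instead lowest in the oocyte. Its values were −5.37, −5.14, −5.77, and −5.78 in the oocyte, −4.09, −4.73, −4.43, and −5.17 in TH, −4.19, −4.09, −3.74, and −4.51 in GC, and −4.23, −4.89, −4.00, and −4.43 in CC. The oocyte lay below GC and CC without overlap and overlapped with TH only through its replicate 2 and TH replicate 4. Set against the somatic mean, REC8 differed by −1.14 on the log2 scale (adjusted p = 1.7e-04, standard error 0.21), and it was −0.89 within slide 1 and −1.40 within slide 2, each with 2 arrays a group. The 2 probes of REC8 went the same way, with log2 differences of −0.81 and −1.47, but the second was above background on no oocyte array, so that its fall was a bound, at least 1.90-fold from GC (limma over probes, adjusted p = 0.0010).

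STAG3, the meiotic form of the subunit that binds the kleisin, depended on the probe. Probe 1 had values of −2.55, −2.75, −2.29, and −2.34 in the oocyte against means of −4.67 (TH), −5.25 (CC), −6.35 (GC), and −6.16 (CC after IVM), and it was above background on 3 TH arrays, 3 CC arrays, 1 array of CC after IVM, and no GC array. Probe 2, above background on all 20 arrays, had values of −3.25, −3.78, −3.61, and −3.49 in the oocyte against means of −2.80 (TH), −2.48 (GC), −2.50 (CC), and −1.99 (CC after IVM). All 4 oocyte arrays were thus above the 12 arrays of TH, GC, and CC by the first probe and below them by the second. The log2 differences from the somatic mean were 2.94 (standard error 0.36, adjusted p = 2.6e-06) and −0.94 (standard error 0.15, adjusted p = 5.0e-05, limma over probes).

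The 7SK probe that shares 19 bases with STAG3 probe 2 had means of −3.61 (oocyte), −0.93 (TH), −0.37 (GC), −0.72 (CC), and 0.30 (CC after IVM). Its order of groups, lowest in the oocyte and highest in CC after IVM, was that of probe 2, and its part in the STAG3 result was not tested. The gene value, with an oocyte difference of 1.00 (adjusted p = 8.4e-04, standard error 0.22), is the middle of both probes and gave −0.88 when the brightest probe was used and −0.19 with normexp correction. STAG3 is counted among the higher genes by this gene value alone.

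**Figure D2:**
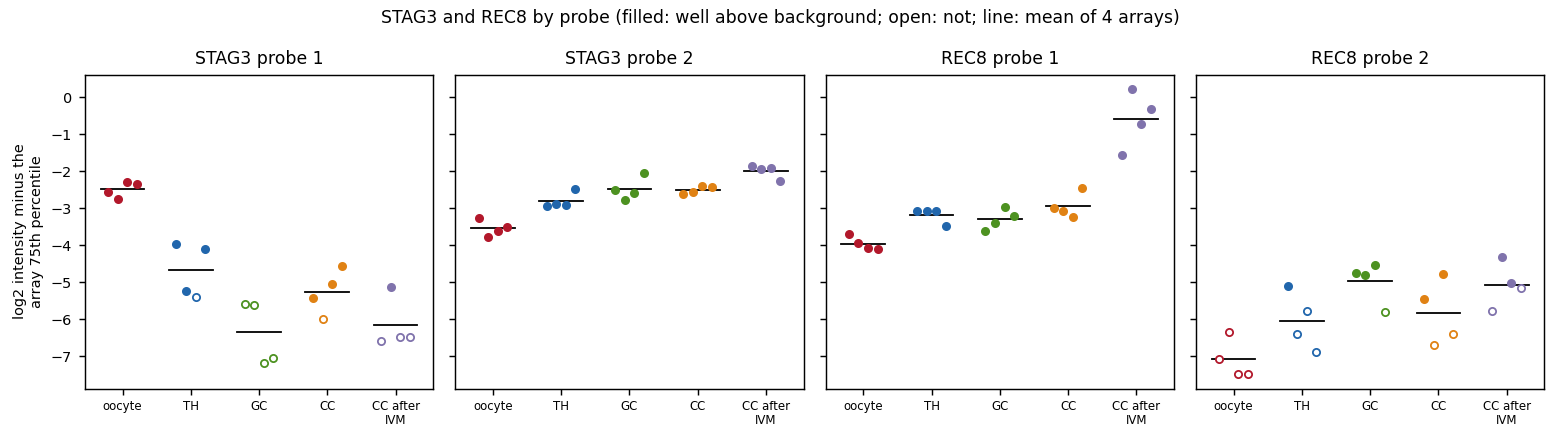
Values of the 2 probes of STAG3 and of REC8 on each array, as log2 intensity minus the 75th percentile of the array, by group. Points are arrays, filled where the probe was well above background, and lines are means of 4 arrays. STAG3 probe 1 is highest in the oocyte (mean −2.48) while STAG3 probe 2 is lowest there (mean −3.53), and REC8 probe 1 is highest in CC after IVM (mean −0.59).

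Among the genes of the chromosome axis, SYCP3, a lateral element protein of the synaptonemal complex, was far higher in the oocyte than in every other group. Its values were 3.33, 3.53, 3.88, and 3.52 in the oocyte, −2.56, −4.15, −4.26, and −4.92 in TH, and −5.28, −5.75, −5.18, and −3.83 in CC. GC had values of −6.16, −7.12, −6.94, and −6.51, none above background. The lowest oocyte array exceeded the highest somatic array by several log2 units, and the log2 difference was 7.54 from TH (186-fold, adjusted p = 5.8e-10) and 8.58 from CC (382-fold, adjusted p = 1.3e-10). From GC it was a bound, at least 387-fold (adjusted p = 1.8e-11). Both SYCP3 probes were bright in the oocyte, with means of 3.17 and 3.96. The first shares 17 bases with a probe of JPH1, which was at −3.73 in the oocyte, and the part of it in the SYCP3 result was not tested.

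SYCP2, the partner of SYCP3 in the lateral element, and HORMAD1, a HORMA domain protein that marks unsynapsed axes, were much dimmer. SYCP2 had values of −5.20, −5.14, −4.49, and −5.50 in the oocyte, and HORMAD1 had −4.57, −5.40, −4.67, and −4.96. Both were above background on 3 oocyte arrays, all but replicate 2, and on none of the 16 somatic arrays, where SYCP2 lay between −7.92 and −6.56 and HORMAD1 between −7.78 and −6.70. All 4 oocyte arrays lay above all somatic arrays in both genes. The log2 differences from the somatic mean were 2.26 for SYCP2 (adjusted p = 2.4e-08) and 2.48 for HORMAD1 (adjusted p = 3.4e-10). By probe, SYCP2 differed by 1.20 for probe 1, above background on 2 oocyte arrays, and by 3.32 for probe 2, on 3. HORMAD1 differed by 2.49, 2.69, and 1.56 for probes 1, 2, and 3, with probe 3 above background on 2 oocyte arrays.

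Against the lowest signal well above background, these differences shrank to at least 1.12-fold for SYCP2 and at least 1.27-fold for HORMAD1. For SYCP2 no bound above 1 was reached against GC or CC after IVM, nor for HORMAD1 against CC after IVM. Taken alone, SYCP2 probe 1 and HORMAD1 probe 3 reached no bound above 1 against any group. With normexp correction, the log2 differences turned to −0.54 in SYCP2 and −0.49 in HORMAD1, both called lower, where the median of all genes was −1.3.

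DMC1, the meiotic strand exchange protein, was above background on no array of the oocyte, GC, CC, or CC after IVM, and on TH replicates 2 and 4 alone. Its values were −8.38, −6.20, −8.84, and −7.90 in the oocyte, with replicate 2, the array with the fewest bright spots, highest. TH had −7.06, −7.31, −7.13, and −5.79. Its log2 difference of −0.79 against the somatic average missed the threshold (standard error 0.36, adjusted p = 0.064). No DMC1 signal was detectable in the oocyte with these probes.

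The 3 crossover genes were all higher in the oocyte. MSH5, one of the MutS homologues of the crossover complex, had values of 0.17, 0.37, 0.84, and 0.33 in the oocyte, −5.72, −4.95, −4.99, and −4.70 in TH, −4.01, −4.01, −4.53, and −3.13 in GC, and −3.07, −3.52, −3.37, and −3.07 in CC. It was above background on every one of these arrays, with no overlap between the oocyte and the others. Its log2 difference was 5.52 from TH (45.8-fold, adjusted p = 8.3e-11), 4.35 from GC (20.4-fold, adjusted p = 1.4e-09), and 3.69 from CC (12.9-fold, adjusted p = 9.8e-09).

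MSH4, the other MutS homologue of that complex, was dim. It had values of −4.44, −4.17, −4.07, and −4.28 in the oocyte, above background on all but replicate 2, and no TH, GC, or CC array was above background. The 4 oocyte arrays lay within 0.37 log2 units and above all somatic arrays, and the log2 difference was 2.74 (adjusted p = 1.5e-08, standard error 0.22). As a bound, MSH4 was at least 2.01-fold higher than in the somatic mean, and normexp correction gave −0.34.

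MLH3, a MutL homologue that acts in resolving crossovers, had values of −1.65, −1.77, −1.59, and −1.73 in the oocyte, −3.34, −3.27, −3.25, and −3.04 in TH, −2.20, −2.75, −2.61, and −2.75 in GC, and −2.27, −2.37, −2.26, and −2.09 in CC. Its difference was small but beyond the spread between replicates, at 1.54 from TH (adjusted p = 1.6e-07), 0.89 from GC (adjusted p = 6.5e-05), and 0.56 from CC (adjusted p = 0.0035). All 4 oocyte arrays were above all 12 others. Within slides, with 2 arrays a group, the difference from CC was 0.61 on slide 1 and 0.51 on slide 2 and passed the threshold on neither. By probe, the difference from CC was 0.83 for the first (adjusted p = 0.0062) and 0.29 for the second (adjusted p = 0.17).

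**Figure D3:**
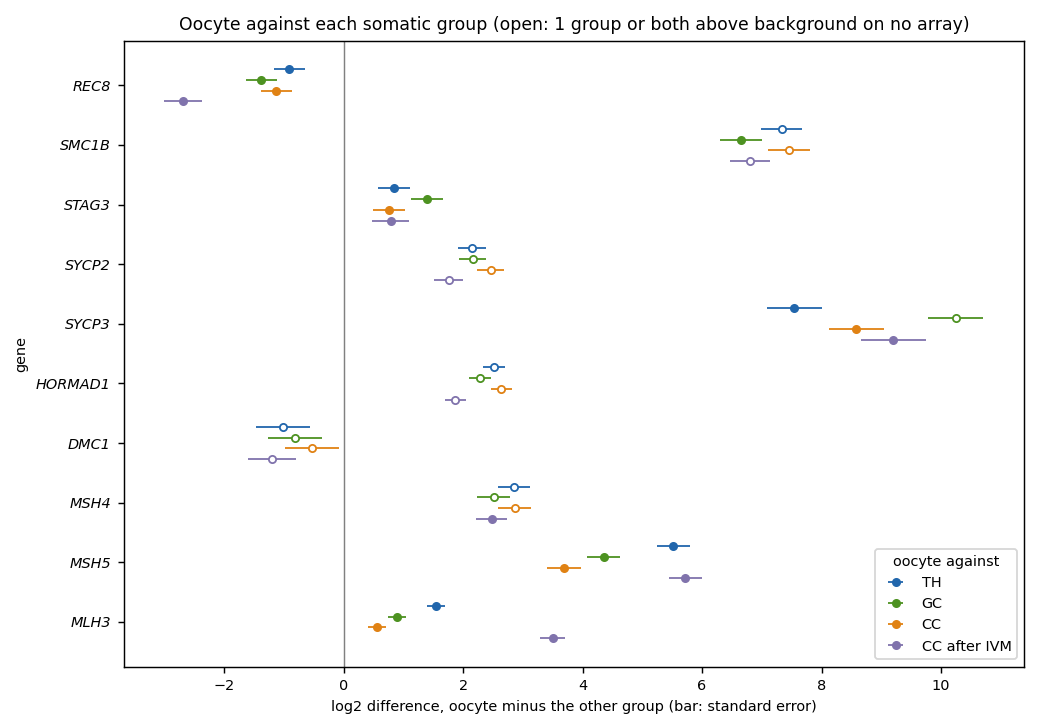
Log2 difference between the oocyte and each somatic group (horizontal axis) for each of the 10 genes (vertical axis), with bars for the standard error from limma. Open points mark comparisons in which either group or both were above background on no array. The difference is at most a bound there, and it has no direction where both were. SYCP3, SMC1B, and MSH5 lie above 3 in every comparison, REC8 lies below 0 in all 4, and DMC1 has only open points.

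The same 8 genes were higher and REC8 was lower when the oocyte was set against TH, GC, and CC one at a time, comparisons that share the oocyte arrays. Of all genes, 32.5% were higher and 32.1% lower than in TH, 30.7% higher and 37.9% lower than in GC, and 31.8% higher and 32.0% lower than in CC. Against CC after IVM, all 10 genes were called, 8 higher and 2 lower, with 30.4% of all genes higher and 49.8% lower. Oocyte arrays were on slides 1 and 2 and those of CC after IVM on slide 3. In this comparison, group and slide cannot be told apart. The call in DMC1 there rests on arrays that were all below background and has no direction. A filter that kept genes above background on all 4 arrays of at least 1 group passed 6 of the 10 genes (REC8, SMC1B, STAG3, SYCP3, MSH5, and MLH3). With normexp correction, 4 genes were higher and 2 lower against TH, and 4 higher and 5 lower against GC. It gave 3 higher and 2 lower against CC, and 4 higher and 6 lower against CC after IVM. Of all 22550 genes, it called 5427 higher and 14488 lower against TH, and 5011 and 15227 against GC. It called 5221 and 14744 against CC, and 4739 and 15685 against CC after IVM. Scaling to the probes detected on all arrays gave 7 higher and 2 lower against TH (6510 and 9422 of all genes). The values of the deposited table gave 7 higher and 2 lower against GC (7433 and 12430 of all genes).

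Between the somatic groups TH, GC, and CC, 3 genes differed (SYCP3, MSH5, and MLH3) by limma's F-test, with 34.1% of all genes called. MSH5 was lowest in TH, and CC exceeded TH by 1.83 (standard error 0.28, adjusted p = 1.0e-04) and GC exceeded TH by 1.17 (adjusted p = 0.0055), while CC and GC differed by 0.66 (adjusted p = 0.18). MLH3 had the same order, with CC above TH by 0.98 (adjusted p = 9.6e-05), GC above TH by 0.64 (adjusted p = 0.0042), and CC and GC apart by 0.33 (adjusted p = 0.21). SYCP3 had no signal above background in GC, so its differences from GC were bounds, with TH at least 2.08-fold higher (adjusted p = 3.4e-04) and CC at least 1.02-fold (adjusted p = 0.030), a bound that leaves the order of CC and GC unsettled. CC and TH differed by −1.04 (adjusted p = 0.10). The SYCP3 call among the 3 groups was lost with normexp correction, where its largest difference between groups went from 2.71 to 0.26, and with the deposited table, where it was 0.71.

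The SYCP3 values of the somatic arrays did not all move with the oocyte markers. TH replicate 1 had the highest SYCP3 value of the TH, GC, and CC arrays, at −2.56, with summed oocyte markers at −1.39 on the log2 scale. CC replicate 4 had the highest summed markers, at 1.59, and the next highest SYCP3 value after it, at −3.83. The other CC arrays had markers of −0.83 to 0.41 and SYCP3 values of −5.75 to −5.18. The part of oocyte RNA in these values was not tested. Within slide 1, 2 of the 3 genes were called (SYCP3 and MSH5), and within slide 2 only SYCP3 was.

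After 4 h of IVM, REC8 was higher and MSH5 and MLH3 were lower in CC, the 3 called genes with signal above background in either group. The 4 arrays of CC after IVM were all on slide 3 and those of CC on slides 1 and 2, so that IVM and slide cannot be told apart. Limma over the 8 arrays called 7 genes, 5 higher and 2 lower, with 30.3% of all genes called higher and 15.5% lower. Quantile normalization gave 1 and 2, with 2754 of all 22550 genes higher and 3623 lower. Normexp correction gave 8 and 1, with 14714 of all genes higher and 2954 lower. Of the 7 genes called without these alternatives, SMC1B, SYCP2, HORMAD1, and DMC1 were above background on none of the 8 arrays. Their differences of 0.64 to 0.78 have no direction. The median difference of all genes was 0.37, and it was −0.01 when taken over 9536 genes that every array measured above background.

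REC8 rose after IVM. Its values were −4.23, −4.89, −4.00, and −4.43 in CC and −3.67, −2.05, −2.86, and −2.74 after IVM, with no overlap. The log2 difference was 1.55 (2.94-fold, standard error 0.34, adjusted p = 0.0065). The change was that of probe 1, at 2.34 (adjusted p = 0.0020, standard error 0.37), whereas probe 2, above background on 2 arrays of each group, differed by 0.76 (adjusted p = 0.20). The difference between the probes was not tested. STAG3 probe 2 differed by 0.51 (adjusted p = 0.041) and probe 1 by −0.91 (adjusted p = 0.10).

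MSH5 and MLH3 fell after IVM. MSH5 had values of −5.41, −5.37, −4.83, and −5.56 after IVM, above background on replicate 3 alone, against −3.52 to −3.07 in CC, and differed by −2.04 on the log2 scale (standard error 0.22, adjusted p = 1.3e-04). With normexp correction it was −0.21 and did not pass the threshold. MLH3 had −5.69, −5.45, −4.54, and −5.04 after IVM, above background on 3 arrays, against −2.37 to −2.09 in CC, and differed by −2.93 (7.63-fold, standard error 0.26, adjusted p = 3.8e-05). Both MLH3 probes fell, by log2 differences of −2.87 and −2.99, the second to below background on all 4 arrays, at least 2.69-fold (adjusted p = 2.2e-04). The 4 markers of blood and endothelium (PTPRC, HBB, CD68, and PECAM1) summed to 0.461 to 1.01 in CC after IVM and 0.0926 to 0.219 in CC. CD68 was on all 8 arrays, with means of −0.74 and −2.89, HBB on 2 and PECAM1 on 1 array after IVM, and PTPRC on none, and their part in these values was not tested.

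Of 64 further genes of meiotic cohesion, synapsis, and recombination, 60 were on the array by name, and 43 of them were higher and 5 lower in the oocyte against the somatic mean (limma, the same fit, 32.9% and 38.3% of all genes). Their median on the log2 scale was 1.6. With normexp correction 36 were higher and 16 lower, where 5416 of all 22550 genes were higher and 15127 lower. Of the 6 cohesin subunits shared with mitosis or related to them, 3 were higher (SMC3, RAD21, and STAG1), 2 lower (SMC1A and STAG2), and RAD21L1 was not called. SMC3, the ring partner common to mitotic and meiotic cohesin, had a mean of 1.93 ± 0.25 (SD, n = 4) in the oocyte, higher by 1.09 (adjusted p = 2.2e-06), and RAD21, the mitotic kleisin, was higher by 0.80 (adjusted p = 3.5e-06). STAG1 was higher by 1.20 (adjusted p = 5.5e-07). STAG2 was above background on 1 oocyte array and lower, at −6.78 ± 0.45 against means of −4.05 (TH), −3.06 (GC), and −3.72 (CC) (log2 difference −3.17, adjusted p = 7.8e-09). SMC1A, the counterpart of SMC1B, had a log2 difference of −0.86 (adjusted p = 0.0011) and was dim. Its mean was −6.06 in the oocyte, above background on 3 arrays, and −5.41 (TH, 4 arrays), −5.25 (GC, 2 arrays), and −4.94 (CC, 4 arrays). Against CC after IVM it was not called (0.13, adjusted p = 0.66). Against the somatic mean, the oocyte thus had the higher value for SMC1B and the lower for SMC1A, the latter by a small difference in dim signal.

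Of the 12 genes of cohesin loading, release, and protection, 9 were higher and none was lower. SGOL1 (a shugoshin, of the family that protects centromeric cohesin) was at 2.69 ± 0.07, higher by 4.97 (adjusted p = 1.1e-10). SGOL2, the other shugoshin of the list, was higher by 1.31 (adjusted p = 5.0e-06). ESCO2 (an acetyltransferase that locks cohesin on chromatin) was higher by 4.17 (adjusted p = 4.2e-09). All 9 central element and other synapsis genes were called higher, though HORMAD2 was above background on 2 oocyte arrays and no somatic array and reached no bound above 1. TEX12 and SYCE3, both of the central element, were at 0.70 and −0.74 in the oocyte. TEX12 was at least 53.3-fold higher than in GC (adjusted p = 5.3e-11) and at least 69.3-fold than in CC (adjusted p = 3.7e-11). From TH, with signal on 2 arrays, its measured log2 difference was 5.67 (adjusted p = 1.5e-09). SYCE3 was at least 22.8-fold above the somatic mean (adjusted p = 2.1e-11). SYCP1, the transverse filament that joins the axes, was higher by 3.24 (standard error 0.37, adjusted p = 8.8e-07).

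Of 5 genes of break formation on the array, 3 were higher, among them ANKRD31 (mean −0.82 in the oocyte and −4.98 or less in each somatic group, adjusted p = 6.6e-10) and MEI1 (log2 difference 5.15, adjusted p = 1.4e-12), and none was lower. SPO11, which makes the breaks, was above background on no oocyte array and on 2 CC arrays. Of 14 genes of resection and strand exchange, 11 were higher and NBN was lower (log2 difference −2.15, adjusted p = 7.6e-10). SPATA22, a meiotic single strand binding factor, was at 3.25 ± 0.09 in the oocyte. It was at least 373-fold higher than in TH (adjusted p = 9.8e-12) and at least 312-fold than in GC (adjusted p = 1.0e-11). From CC, with signal on 2 arrays, its measured log2 difference was 9.38 (adjusted p = 1.7e-11).

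Of 12 crossover and mismatch repair genes on the array, 7 were higher and 2 lower (HFM1 and C9orf84, both above background on no oocyte array). BLM, a helicase that dissolves joint molecules, was higher by 3.55 (adjusted p = 8.9e-11). Of the 2 genes of meiotic entry on the array, DAZL was higher by 5.33 (adjusted p = 4.6e-11) and STRA8 was not called.

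After IVM, 22 of the 60 genes were lower in CC and 5 higher, where 15.5% of all genes were lower and 30.3% higher, with a median log2 difference of −0.25 against 0.37 over all genes. The falls included 7 of the 12 crossover and mismatch repair genes and 7 of the 14 of resection and strand exchange. Of the other lists, SMC3 went from 1.02 in CC to −0.76 after IVM (log2 difference −1.77, adjusted p = 2.6e-04), and SGOL1 from −1.88 to −3.26 (log2 difference −1.38, adjusted p = 0.0022). Both, like MSH5 and MLH3, lay without overlap below CC. The genes that rose were EXO1 (2.45), RBBP8 (2.13), WAPAL (0.93), and NIPBL (0.77). The fifth call, in C14orf39, has no direction, since it was above background on no array after IVM and on 1 CC array.

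**Figure D4:**
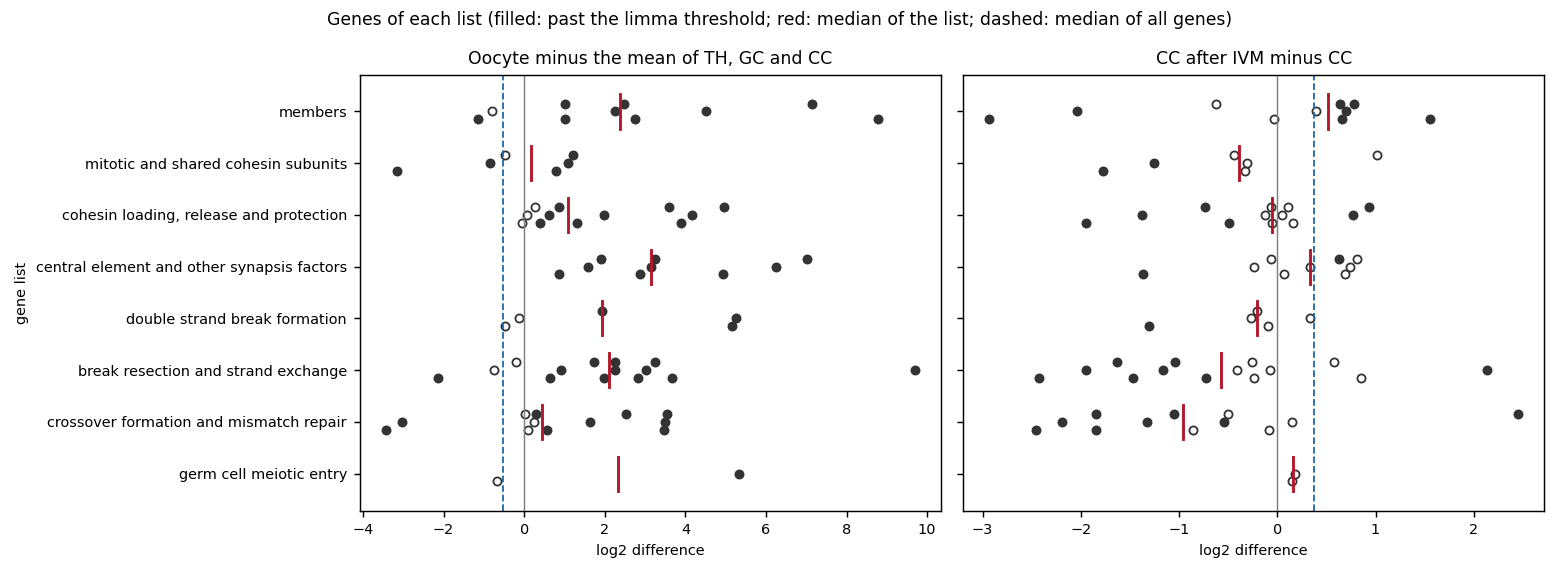
Log2 difference of each gene (points) by gene list, for the oocyte against the somatic mean (left) and for CC after IVM against CC (right). Points are filled where limma called the gene, the red line is the median of the list, and the dashed line is the median of all genes, −0.52 on the left and 0.37 on the right. The central element list has only filled points to the right of 0 in the oocyte, and the crossover list has its median at −0.95 after IVM.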

How the data were processed

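Gene expression was measured on 20 custom bovine Agilent arrays. For each, the authors deposited Feature Extraction output (version 10.7.3.1, annotation UMD 3.1) with the processed intensity per spot, background-subtracted and not normalized between arrays. A deposited table of log2 values equals log2 of the median signal minus the array median, within 5e-09. No spot was saturated, and 0 to 23 spots per array marked as outliers were left out. Of 9779 unnamed probes, 734 were named by accession through the RefSeq table.

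The log2 processed intensity was scaled to the 75th percentile of each array, and the median over the spots of a gene was taken. A test of probes averaged spots of 1 sequence. Models were fitted with limma 3.58.1 in R 4.3.3, adjusted over all genes or probes; tables and figures used Python 3.11.15. TH, GC, CC, and oocytes entered 1 fit of 16 arrays, CC after IVM and CC a fit of 8, and oocytes against CC after IVM a fit of 20. Replicates 1 and 2 of TH, GC, CC, and oocytes were on slide 1, replicates 3 and 4 on slide 2. Same-numbered arrays of TH and GC correlated in their deviations from the group means (r of 0.20 to 0.44), and for no other groups was r over 0.1 in every pair. A group above background on no array gives only a bound, taken with each of its arrays at the higher of its value and the lowest signal well above background. On simulated data, a log2 change of 2 was set in 200 of 22550 genes. It was recovered in 86.0% (oocyte against the somatic mean), 82.0% (oocyte against CC after IVM), and 66.5% (CC after IVM against CC). A change of 1 was recovered in 39.5%, 23.5%, and 0%. Noise was drawn as independent and normal with no background floor, and far more genes were called in the data. These shares therefore do not give the recovery on the real arrays.

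The genes and gene lists were chosen with earlier results of these data known. From each list the text names the 2 largest rises and the 2 largest falls among called genes whose 4 oocyte arrays lay outside the 12 somatic arrays, and SMC1A, SMC3, RAD21, STAG1, STAG2, and SYCP1 whatever their values. Some genes that this rule names are not reported here. RAD21L1, SPO11, STRA8, HFM1, C9orf84, HORMAD2, SGOL2, the 5 genes called higher after IVM, and the blood and endothelium markers were named after their values were seen. Alternatives were other scalings and background corrections, the deposited table, other probe summaries, a filter on dim genes, other fits, blocks, and leaving out each replicate.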

Additional observations from a re-analysis of the deposited data

Results flagged for a closer look

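The 10 genes were searched for single arrays far from the other 3 of their group, by Dixon's critical value for the gap to the nearest array, in 50 gene and group combinations, of which 6 were found and about 1 in 20 is found by chance. SMC1B was at −5.31 in GC replicate 4, above background there by probe 2 alone, with the other GC arrays at −7.36 to −7.10. It was at −7.31 in replicate 3 of CC after IVM, below background, with the others at −6.83 to −6.75. STAG3 was at −3.26 in oocyte replicate 2, with the others at −2.89 to −2.83. DMC1 was at −5.79 in TH replicate 4, above background, with the others at −7.31 to −7.06. MSH4 was at −6.20 in GC replicate 1 and at −6.27 in CC replicate 1, both below background, with the others at −6.97 to −6.88 and −7.42 to −7.33.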

How the results depend on the processing

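The total number of genes called in the oocyte, whatever their direction, was within 1.5 times the values above under all alternatives except normexp correction against CC (5 of 10) and the filter on dim genes against CC after IVM (6, since only 6 genes were tested). After IVM, 3 genes were called with quantile normalization and 4 with the filter. Over all groups, the replicate numbers did not pair the arrays (correlations of same-numbered deviations from −0.26 to 0.44, 16 of 40 over 0.1), although TH and GC deviated together in all 4 pairs (0.20 to 0.44). With the replicate block, 9 genes were called in the oocyte against the somatic mean, TH, GC, or CC, 10 against CC after IVM, 3 among TH, GC, and CC, and 47 of the 60 further genes, but 4 in CC after IVM against CC. Among TH, GC, and CC, 1 gene was called within slide 2. Within-slide fits could not be made for comparisons with CC after IVM. Leaving out 1 array at a time gave 9 to 10 genes against the somatic mean, 8 to 10 against TH, CC, or CC after IVM, 9 to 10 against GC, 3 among the somatic groups, 45 to 49 of the 60, and 4 to 7 after IVM (4 without CC replicate 3, CC replicate 4, or replicate 4 of CC after IVM). REC8 rose and MSH5 and MLH3 fell in each of these.

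With normexp correction, whose offset of 50 is a larger part of the 75th percentile on the dimmer somatic arrays, the log2 difference of the oocyte turned below 0 in 4 genes, of which SYCP2 and HORMAD1 were then called lower than in the somatic mean, as DMC1 was. Against the somatic mean, TH, GC, CC, and CC after IVM it was −0.19, −0.13, −0.26, −0.17, and −0.67 in STAG3, −0.54, −0.43, −0.76, −0.45, and −1.15 in SYCP2, −0.49, −0.34, −0.74, −0.40, and −1.10 in HORMAD1, and −0.34, −0.18, −0.59, −0.26, and −0.90 in MSH4. The brightest probe of STAG3 gave −0.88, −0.68, −1.03, −0.93, and −1.51. In CC after IVM against CC, STAG3 was at 0.50 with normexp correction and 0.58 by its brightest probe, SYCP3 at 0.48 with normexp correction, and SMC1B at −0.02 with quantile normalization. Quantile normalization moved the median of all genes from −0.52 to −0.01 in the oocyte and from 0.37 to 0.01 after IVM. Normexp correction moved these medians to −1.3 and 0.55. Signal over background limits what SYCP2, HORMAD1, MSH4, and DMC1 can show.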
